A study of Arabidopsis thaliana with 32 samples.

Results

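After 3 h of heat shock, 1225 Arabidopsis thaliana genes carried sites of higher RNA polymerase II (RNAPII) signal in the mutant tfiis-1 and, elsewhere in the same gene, sites of higher signal in the wild type Col-0, while none of them had been called higher in tfiis-1 before heat. They were chosen from deposited lists of summits, which are single base pairs at which 1 genotype was called above the other. A gene was taken when it held a summit in the tfiis-1-higher list of 3 h and in the Col-0-higher list of 3 h, and none in the tfiis-1-higher list of 0 min. Of the 9114 genes in any list, 1578 were in both 3 h lists (5.75% of the 27444 nuclear protein-coding genes), and 353 of these dropped out through the 0 min list, which held 4.9% of those genes. No filter on low values was applied, and all 1225 genes are accounted for below. The 1225 genes held 3560 of the 29485 distinct summits of the series. Counted per gene, they held 2316 tfiis-1-higher and 1275 Col-0-higher summits at 3 h, since a summit inside overlapping genes counted in each. Membership in the 3 lists of the rule is a choice, not a result. Positions at 3 h come from the same contrast and are given as descriptions.

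The series profiled RNAPII phosphorylated at Ser2 of its C-terminal domain (S2P) by ChIP-seq in seedlings grown in vitro for 14 days after stratification. Col-0 and the single mutant allele tfiis-1 were sampled unheated (0 min) and at 10 min, 30 min or 3 h into heat shock. For every genotype and time, 3 ChIP libraries and 1 input library were made. No list holds a value per library, so depth is unknown and no site can be set against the spread between replicates. The libraries came from whole seedlings, so a change in a few cells and a smaller change in all cells cannot be told apart. The tfiis-1-higher and Col-0-higher lists of 1 time come from the same libraries, and the lists of 10 min and 30 min come from libraries that the choice of genes did not use.

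RNAPII with Ser2 phosphorylation is the form that transcribes gene bodies, and this mark typically builds up towards the 3' end of genes. TFIIS is an elongation factor: when RNAPII slides backwards and its RNA end leaves the active site, TFIIS stimulates cleavage of that RNA so that synthesis can resume. Heat shock in plants rapidly turns on chaperone genes through heat shock transcription factors, and it changes transcription of many other genes. The TFIIS gene (AT2G38560) appeared in 0 of the 8 lists, so the lists hold no check of the genotype label.

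The directions were ordered along the gene. In 1187 of the 1225 genes (96.9%, exact 95% interval 95.8 to 97.8) every tfiis-1-higher summit of 3 h lay upstream of every Col-0-higher summit. The order was the opposite in 27 genes (2.20%) and mixed in 11 (0.898%). Positions run from 0 (annotated gene start) to 1 (annotated gene end). The median was 0.342 (quartiles 0.159 and 0.563) for tfiis-1-higher summits and 0.972 (0.922 and 0.989) for Col-0-higher summits. The final 10% of the gene held 79.2% (76.9 to 81.4) of the Col-0-higher and 1.34% of the tfiis-1-higher summits. In the first 10% of the gene lay 14.8% (13.4 to 16.3) of the tfiis-1-higher and 1.57% of the Col-0-higher summits. These intervals, and those below, cover counting error only.

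**Figure D1:**
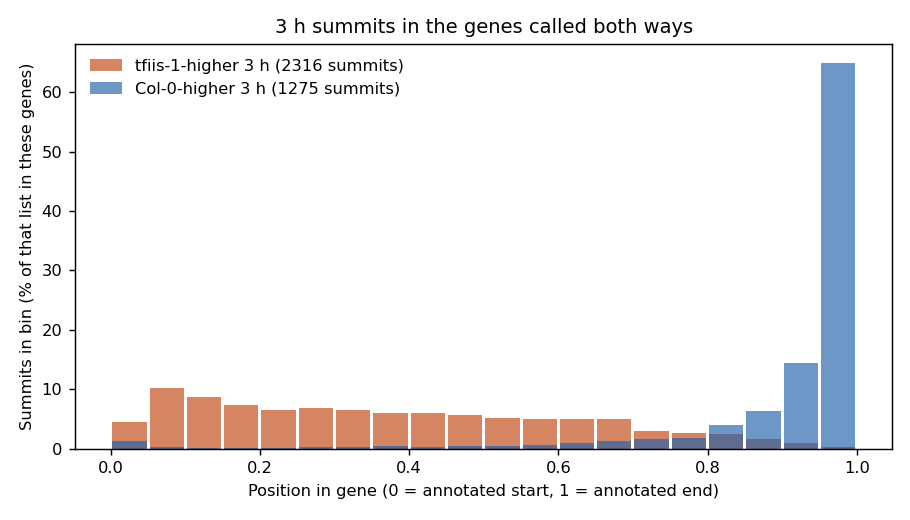
Histogram of the position of 3 h summits in the genes called both ways (x axis, from 0, gene start, to 1, gene end) as a percentage of each list's summits in these genes (y axis). The 2316 tfiis-1-higher summits (orange) spread over the gene body with a median of 0.342, and the 1275 Col-0-higher summits (blue) pile up at the end with a median of 0.972.

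AGO1 (AT1G48410; build TAIR10, chromosome 1, 17885633 to 17892632, minus strand), the main Argonaute protein of microRNA silencing, showed the common layout. Its 5 tfiis-1-higher summits of 3 h lay 211, 3942, 4723, 5530 and 6087 bp from the start. The single Col-0-higher summit lay 294 bp from the end of this gene of 7000 bp. The calls higher in tfiis-1 thus lay at the 5' end and in the body of the gene, and the call higher in Col-0 near the 3' end. GCT (AT1G55325; chromosome 1, 20637333 to 20648434, plus strand), which encodes a subunit of the kinase module of Mediator, had 6 tfiis-1-higher summits between 509 and 4680 bp from the start. Its Col-0-higher summit lay 108 bp from the end, at position 0.990, with no call of either direction at 3 h between 0.422 and that site. CESA1 (AT4G32410; chromosome 4, 15640490 to 15646844, minus strand), a cellulose synthase of the primary cell wall, had 5 tfiis-1-higher summits from 419 to 5241 bp and a Col-0-higher summit 142 bp from the end.

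The genes differed in how many tfiis-1-higher summits they held and little in the number of Col-0-higher ones. At 3 h, 559 genes (45.6%) had 1 tfiis-1-higher summit, 381 had 2, 191 had 3, 60 had 4 and 34 had 5 or more. A single Col-0-higher summit was found in 1189 genes (97.1%), and 36 had 2 or more. REF6 (AT3G48430), a histone H3K27 demethylase, held 8 tfiis-1-higher summits from position 0.0182 to 0.816 and 1 Col-0-higher summit at 0.981. AT5G42950 held 8 as well, from 401 bp to 6309 bp of a gene of 7115 bp. Among the other genes with the most summits, ACO1 (AT4G35830), an aconitase, held 6 tfiis-1-higher summits. ML4 (AT5G07290), a Mei2-like RNA-binding protein, also held 6. So did alpha-ADR (AT5G22770), the alpha-adaptin of the clathrin adaptor AP-2. Neighbouring tfiis-1-higher summits of 1 gene were 893 bp apart in the median (quartiles 635 and 1325, lowest 277, 1091 pairs).

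Of the 36 genes with 2 or more Col-0-higher summits, 8 had at least 3. AT4G17140, the longest gene of the set at 23544 bp, had 5 of them from position 0.468 onwards, downstream of 3 tfiis-1-higher summits at 0.141, 0.256 and 0.355. BIG (AT3G02260), TOR (AT1G50030), AT5G23110, SGR6 (AT2G36810), RRP5 (AT3G11964), VLN3 (AT3G57410) and HSP81-2 (AT5G56030) were the others, and in these 8 genes all of them lay downstream of every tfiis-1-higher summit. TOR, the kinase that couples growth to nutrients, had 3 at 3 h and 9 at 30 min, the latter from position 0.398 to 0.996. In BIG, needed for auxin transport, the 6 Col-0-higher summits took up the stretch from 11930 to 17757 bp from the start. RRP5, named for ribosomal RNA processing, had Col-0-higher summits at 7223, 9836 and 12993 bp and a single tfiis-1-higher summit at 1689 bp. The summit at 12993 bp lay 22 bp from the gene AT3G11960.

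The nearest opposite summits of a gene were 1254 bp apart in the median (quartiles 773 and 1973), and never closer than 154 bp. They lay within 500 bp of each other in 150 genes (12.2%, 10.5 to 14.2). The smallest distances were found in AT5G06700 (TRICHOME BIREFRINGENCE), AT5G43460, BRI1 (AT4G39400), SDH1-1 (AT5G66760), MEKK1 (AT4G08500) and AT1G19720. In BRI1, the brassinosteroid receptor, a tfiis-1-higher summit at 4082 bp was followed by the Col-0-higher one at 4251 bp. In SDH1-1, a subunit of succinate dehydrogenase, the values were 3780 and 3951 bp. In 5 of these 6 genes the tfiis-1-higher summit was the upstream one, and AT1G19720 was the exception. The farthest pair was in GSL10 (AT3G07160), a callose synthase gene, at 14112 bp. BIG, AT2G48060, PA200 (AT3G13330), ALY3 (AT3G21430) and GLT1 (AT5G53460) came next, in this order.

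Summits of both directions lay further from their gene edge in longer genes, by more bp for the tfiis-1-higher ones. The genes were 3094 bp long in the median (834 to 23544), against 2078 bp for 27444 nuclear protein-coding genes. From the shortest to the longest quartile of the set, tfiis-1-higher summits lay a median of 655, 979.5, 1438 and 1720.5 bp from the start, and their number per gene was 1.27, 1.67, 2.04 and 2.59. Over the same quartiles the Col-0-higher summits lay 64, 77.5, 80 and 133 bp from the end. The tfiis-1-higher-upstream order was found in 97.4%, 96.1%, 97.4% and 96.7% of the genes. Even AT5G37670, the shortest gene at 834 bp, had its tfiis-1-higher summit 465 bp from the start and its Col-0-higher summit 21 bp from the end. The latter lay 26 bp from the gene AT5G37680, so it cannot be assigned to 1 gene alone. TIM13 (AT1G61570), for import into mitochondria, had them at positions 0.404 and 0.902 of 1074 bp.

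**Figure D2:**
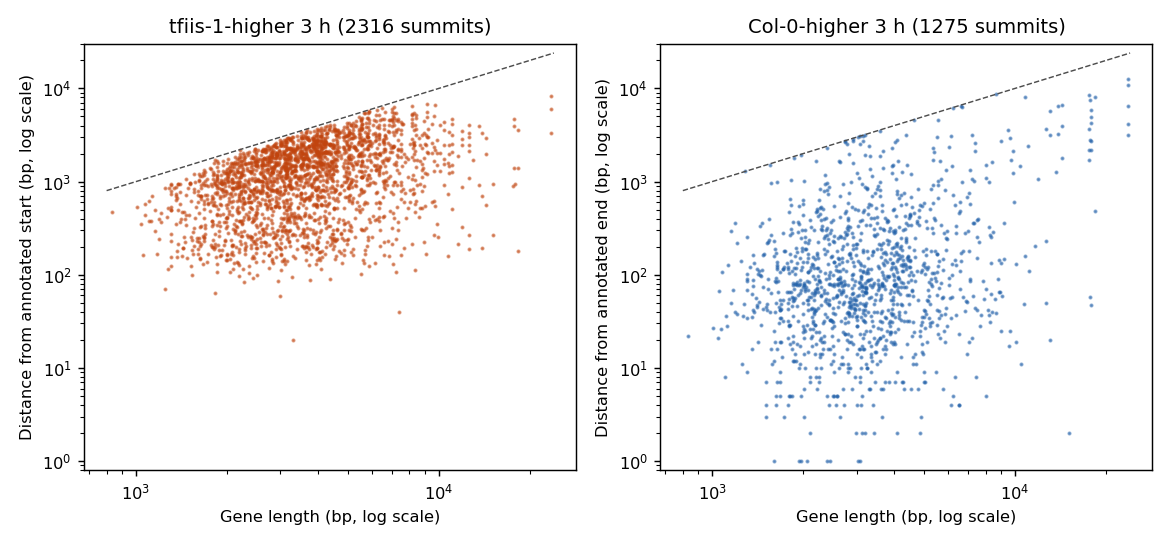
Each point is a 3 h summit in a gene called both ways, against gene length in bp (x axis, log scale). Left, distance of the 2316 tfiis-1-higher summits from the start; right, distance of the 1275 Col-0-higher summits from the end (y axes in bp, log scale, 1 bp added); the dashed line is the full gene length. The left cloud rises with gene length, from a median of 655 bp to 1720.5 bp over the quartiles, and the right one by fewer bp, from 64 to 133 bp.

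Genes called in 1 direction at 3 h, and likewise absent from the tfiis-1-higher list of 0 min, were set beside this layout. In 4190 genes that were tfiis-1-higher alone, the summits had a median position of 0.425, and the final 10% of the gene held 5.20% of them. In 1304 genes that were Col-0-higher alone, the median position was 0.907, with 51.3% of the summits in the final 10%. These sets hold shorter genes (medians 2633 and 1996 bp). Within the length quartiles of the 1225 genes, tfiis-1-higher medians were 0.379, 0.365, 0.399 and 0.284, against 0.466, 0.458, 0.428 and 0.323 in genes that were tfiis-1-higher alone. The Col-0-higher distances from the end, given above, compare with 176, 172, 189.5 and 192 bp in genes that were Col-0-higher alone. In each quartile the genes called both ways thus had the more upstream tfiis-1-higher and the more distal Col-0-higher summits. Their choice used these lists, so the difference was not tested. In the 353 genes left out because they were already tfiis-1-higher at 0 min, 98.9% had the tfiis-1-higher summits upstream, with medians of 0.335 and 0.972.

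The earlier lists show what these genes had done before 3 h. At 10 min, 469 of the 1225 genes (38.3%, 35.6 to 41.1) were tfiis-1-higher, where 10.9% of all nuclear protein-coding genes were. At 30 min, 782 (63.8%, 61.1 to 66.5) were tfiis-1-higher, against a background of 16.6%, and 234 (19.1%, 16.9 to 21.4) were Col-0-higher, against 3.16%. In each length quartile the share was above that of all genes of the same lengths. In the longest quartile, for example, 76.8% were tfiis-1-higher at 30 min against 38.8%, and in the shortest 48.9% against 9.75%. The background also holds genes with little transcription, whose part in these differences was not tested. Of the 4190 genes that were tfiis-1-higher alone at 3 h, 18.6% were tfiis-1-higher at 10 min and 48.2% at 30 min. Of the 1304 genes that were Col-0-higher alone, 36.6% were tfiis-1-higher at 10 min and 16.0% (209 genes) at 30 min. The share that was Col-0-higher at 30 min was 16.4% in these 1304 genes, near that of the set, and 3.22% in the 4190. In their tfiis-1-higher share the genes called both ways were thus near the Col-0-higher set at 10 min, and above both sets at 30 min. The 353 genes called both ways at 3 h but left out through the 0 min list had higher shares still. Of them, 68.0% were tfiis-1-higher at 10 min and 92.9% at 30 min, and 27.5% were Col-0-higher at 30 min.

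By history, the most frequent classes were 350 genes that were tfiis-1-higher at 30 min with no other earlier call, 272 genes in no earlier list, and 264 that were tfiis-1-higher at 10 min and at 30 min. The 272 genes without an earlier call had the order of the rest: tfiis-1-higher summits were upstream in 262 of them (96.3%). They were shorter (median 2746.5 bp, against 3298 bp for the genes that were tfiis-1-higher at 30 min). Of their tfiis-1-higher summits, 18.2% lay within 300 bp of the start, against 12.5% in the latter.

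Within these genes, the median position of tfiis-1-higher summits lay towards the 3' end at 10 min and further upstream at each later time. The lower quartile at 10 min was 0.481, so many of these summits lay well inside the gene. The median position was 0.807 for 604 summits at 10 min, 0.466 for 1515 summits at 30 min and 0.342 at 3 h. The final 10% of the gene held 34.3% of the 10 min summits and 2.97% of the 30 min summits. In 340 genes that were tfiis-1-higher at both of these times, the gene's median position moved by -0.238 in the median, and it was further upstream at 30 min in 267 of them (78.5%, 73.8 to 82.8). In the other 1494 genes of both lists it was further upstream in 1121, with a median change of -0.154. From 30 min to 3 h the position moved upstream in 574 of 782 genes (73.4%, median change -0.0911). Genes that were tfiis-1-higher alone at 3 h had this in 1355 of 2018 cases (67.1%, median change -0.0688). The 3 h positions come from the lists used to choose the genes, so this difference was not tested. In 191 of the 340 genes (56.2%) the position moved upstream at both steps. GCT had its tfiis-1-higher summits at 0.942 and 0.983 at 10 min, and 4 between 0.137 and 0.415 at 30 min. In CESA1 some sites recurred: tfiis-1-higher summits lay 1207 bp from the start at 10 min and 1240 bp at 3 h, and others at 403 bp at 30 min and 419 bp at 3 h.

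**Figure D3:**
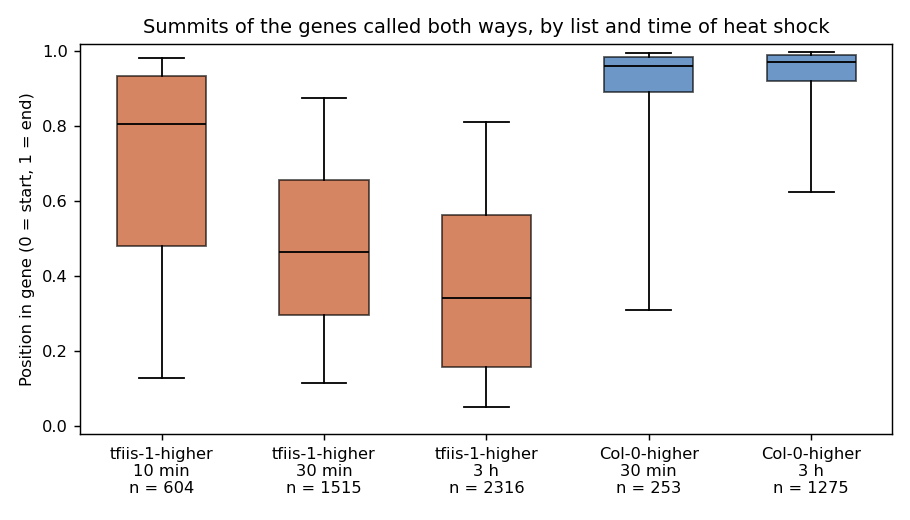
Position in the gene (y axis, 0 at the start, 1 at the end) of summits of the genes called both ways, by list; boxes give quartiles and median, whiskers the 5th and 95th percentiles, and n the summits. The tfiis-1-higher medians are 0.807 (10 min), 0.466 (30 min) and 0.342 (3 h), while the Col-0-higher medians are 0.960 and 0.972.

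In part of the genes a Col-0-higher call of 3 h lay near an earlier tfiis-1-higher one, counted at any position in the gene. In 299 of the 469 genes that were tfiis-1-higher at 10 min (63.8%), a Col-0-higher summit of 3 h lay within 300 bp of a tfiis-1-higher summit of 10 min. In genes of these lists outside the set the share was 64.6% (499 of 773). NOXY38 (AT3G52140; chromosome 3, 19332828 to 19341739), which encodes FRIENDLY, a protein of mitochondrial distribution, had a tfiis-1-higher summit at 8647 bp at 10 min. Col-0-higher summits then lay at 8805 bp at 30 min and at 8846 bp at 3 h. SPP (AT5G42390; chromosome 5, 16945165 to 16953353), the stromal processing peptidase, went from tfiis-1-higher at 7817 bp at 10 min to Col-0-higher at 7846 and 7861 bp at 30 min and 3 h. In 221 of the 234 genes that were Col-0-higher at 30 min (94.4%), a Col-0-higher summit of 3 h lay within 300 bp of one of 30 min. Genes outside the set that were Col-0-higher at both times had this in 279 of 320 cases (87.2%). Every gene in these shares, inside and outside the set, was Col-0-higher at 3 h by choice. The shares thus do not say how often a tfiis-1-higher site of 10 min later became Col-0-higher. Nor do they say how often a Col-0-higher call was lost after 30 min. AGO1 had its Col-0-higher summits of 30 min and 3 h 2 bp apart, at 6707 and 6705 bp. Of the tfiis-1-higher summits of 3 h, 38.8% (36.8 to 40.8) lay within 300 bp of a tfiis-1-higher summit of 30 min, and 7.47% within 300 bp of one of 10 min. Outside the set the shares of all tfiis-1-higher summits of 3 h were close to these, at 35.5% and 8.19%. Counted by gene, among genes that were tfiis-1-higher at both times, the 10 min share was lower in the set. A tfiis-1-higher summit of 3 h lay within 300 bp of one of 10 min in 158 of 469 genes (33.7%). Outside the set this held in 715 of 1363 genes (52.5%). For 30 min the shares by gene were 84.5% in the set and 85.7% outside it. The difference at 10 min was not tested.

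The order of the directions could also be read at 30 min, in libraries that the choice of genes did not use. Of the 1225 genes, 168 (13.7%) were in both 30 min lists, against 1.47% of all nuclear protein-coding genes. In 164 of the 168 (97.6%, 94.0 to 99.3) every tfiis-1-higher summit lay upstream of every Col-0-higher one, and in 4 the order was the opposite. Genes of both 30 min lists outside the set had the same order in 232 of 236 cases (98.3%, 95.7 to 99.5). The same layout was thus found outside the 1225 genes. At 30 min the nearest opposite summits were 1287 bp apart in the median in the 168 genes and 1236 bp in the 236. The authors' scores of the Col-0-higher summits of 30 min had a median of 8.16 in the set (253 summits) and 6.58 outside it (683). The highest 8 genes by this score were TOR, RAD50 (AT2G31970), AT5G42740, SGR6, SOV (AT1G77680), AT5G47020, DIM1A (AT2G47420) and AT2G30480. In 6 of these 8 that summit lay 29 to 529 bp from the gene end, and in RAD50 and DIM1A it lay within 65 bp of the start. At 3 h the Col-0-higher summit of RAD50, 39 bp from its start, lay 40 bp from GSL03 (AT2G31960), also in the set. It cannot be assigned to 1 gene alone.

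In the 27 genes with the opposite order, 16 of the 28 Col-0-higher summits were within 300 bp of the start and 0 within 300 bp of the end. These genes were picked by the positions of the same summits, so this is a description and not a separate result. Another annotated gene lay within 300 bp of 22 of the 28 summits (78.6%), against 43.0% of the 1232 Col-0-higher summits in genes of the common order. Such a summit cannot be assigned to 1 gene alone in either order, and the part of neighbouring genes in the opposite order was not tested. E1 ALPHA (AT1G59900), a subunit of pyruvate dehydrogenase, had its Col-0-higher summit 40 bp from the start, 59 bp from the gene AT1G59890, and its tfiis-1-higher summit at 1734 bp. RPSAb (AT3G04770), a protein of the small ribosomal subunit, had it 48 bp from the start, inside the neighbouring gene AT3G04780. DIM1A, named as an adenosine dimethyl transferase, was Col-0-higher 4 bp from the start at 30 min and 31 bp at 3 h, 102 bp from AT2G47410. In AT2G21090 no other gene lay within 1000 bp of the Col-0-higher summit at 536 bp, which was upstream of the tfiis-1-higher summit at 1975 bp.

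**Figure D4:**
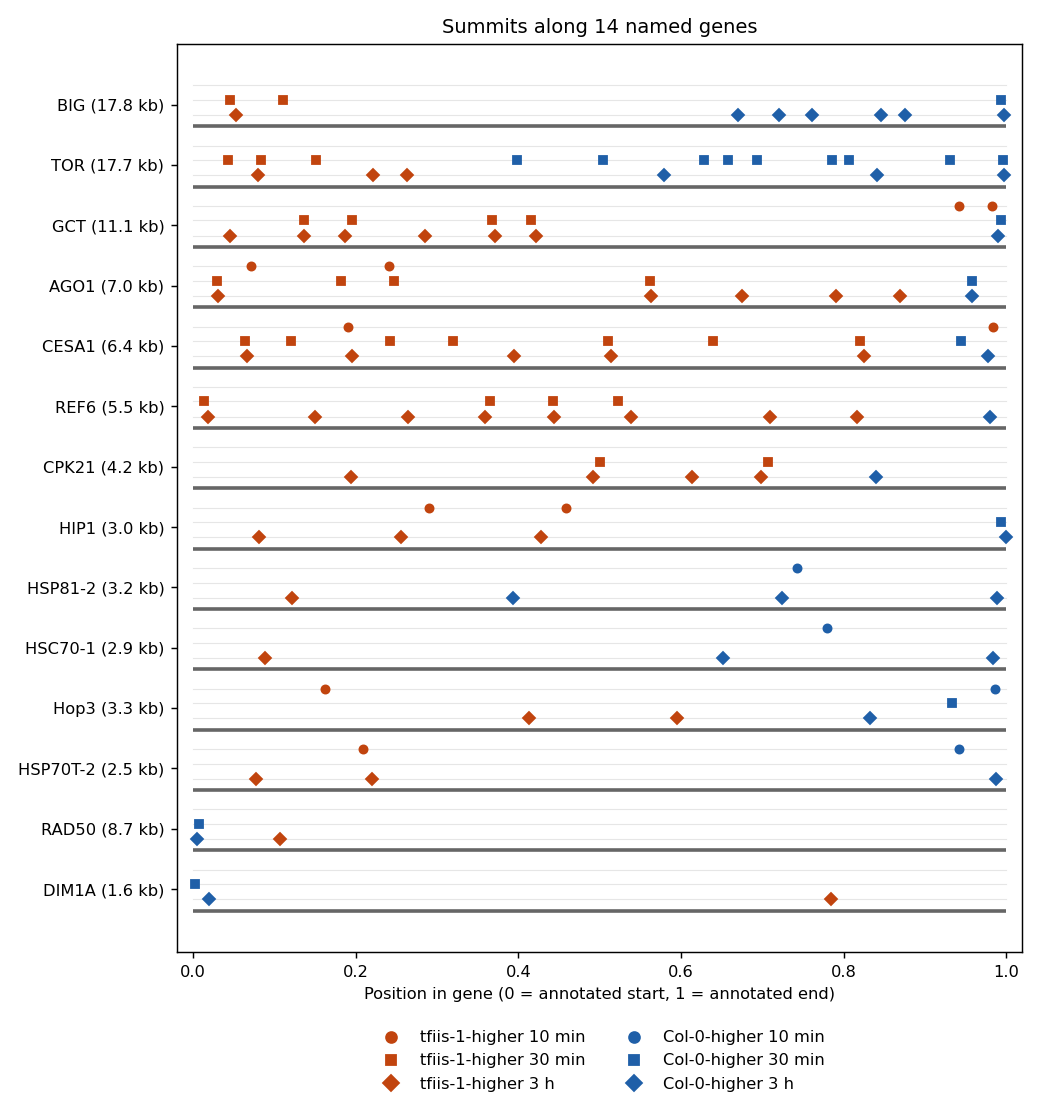
Summits along 14 named genes, drawn from start (0) to end (1), with 1 line each for 10 min (circles), 30 min (squares) and 3 h (diamonds); orange is tfiis-1-higher and blue Col-0-higher. In 12 genes the 3 h diamonds run from orange to blue, and in RAD50 and DIM1A the blue diamonds are at the start.

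Chaperone genes formed the gene group with the highest share among groups of at least 20 genes. Of 54 genes named as heat shock proteins or chaperones, 19 (35.2%, 22.7 to 49.4) were in the set, against 4.46% of all nuclear protein-coding genes. Among the 54, 55.6% were tfiis-1-higher at 3 h (background 23.7%), and 48.1% were Col-0-higher (background 10.8%). All 19 had the tfiis-1-higher summits upstream, and all 19 had a Col-0-higher summit within 300 bp of the end (1 to 268 bp), where 81.6% of the 1225 genes did. Their first tfiis-1-higher summit lay 383 bp from the start in the median (112 to 2263 bp). Before 3 h, 57.9% of the 19 were tfiis-1-higher at 10 min, and 15.8% (3 genes) at 30 min, against 63.8% of the whole set. The group was formed from names and leaves out other heat shock genes of the set, such as Hop3 and BAG6, described below. In Hop3 the Col-0-higher summit of 3 h, 2783 bp from the start, lay outside the final 300 bp of the gene. In BAG6 the last one lay 205 bp from the end. The shares above thus hold for the 19 named genes only.

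HIP1 (AT4G22670), an HSP70-interacting co-chaperone, had tfiis-1-higher summits at 243, 764 and 1275 bp and a Col-0-higher summit 1 bp from its end. HSP81-3 (AT5G56010), a cytosolic HSP90, had tfiis-1-higher summits at 112, 1968 and 2664 bp and a Col-0-higher summit 35 bp from its end. Its close paralogue HSP81-2 (AT5G56030; chromosome 5, 22686473 to 22689671) had 1 tfiis-1-higher summit at 390 bp and Col-0-higher summits at 1257, 2315 and 3162 bp. The treatment of reads that match both paralogues is not given, so the split between them is uncertain. Mitochondrial, plastid and endoplasmic reticulum chaperones were in the set as well, among them CPN60A (AT2G28000), CLPB4 (AT2G25140), HSP93-III (AT3G48870), mtHsc70-1 (AT4G37910), cpHsc70-1 (AT4G24280) and CRT1a (AT1G56340), chosen after their values were seen.

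The 10 genes of the set that were Col-0-higher at 0 min or 10 min included several heat shock genes. AT1G21680 was the only one at 0 min (background 0.113%), and 9 were Col-0-higher at 10 min (0.735%, background 0.251%). HSC70-1 (AT5G02500; chromosome 5, 553745 to 556623), a cytosolic HSP70, was Col-0-higher at 2245 bp at 10 min, and at 1877 and 2833 bp at 3 h, when it was tfiis-1-higher at 254 bp. BAG6 (AT2G46240), a co-chaperone of the BAG family, was Col-0-higher at 1476 bp at 10 min, and at 1292 and 3882 bp at 3 h, downstream of a tfiis-1-higher summit at 114 bp. HSP70T-2 (AT2G32120) was called in both directions at 10 min already, tfiis-1-higher at 523 bp and Col-0-higher at 2359 bp. Its 3 h summits, at 194 and 552 bp and at 2473 bp, kept that order. In Hop3 (AT4G12400), an HSP70-HSP90 organizing protein, the Col-0-higher summit lay at 3298 bp at 10 min, 3123 bp at 30 min and 2783 bp at 3 h. At 3 h the tfiis-1-higher summits were upstream in 9 of the 10 genes. The exception was AT1G23880, which was Col-0-higher at 93 bp, 94 bp from the gene AT1G23870, and tfiis-1-higher at 1284 and 1737 bp.

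Splicing factors were next, with 7 of 40 genes (17.5%, 7.34 to 32.8) in the set. U1-70K (AT3G50670), a protein of the U1 snRNP that recognises 5' splice sites, was tfiis-1-higher at 204 and 2023 bp and Col-0-higher 79 bp from its end. SNRNP-G (AT2G23930) followed the same order, with summits at positions 0.340 and 0.976. U2AF35B (AT5G42820), of the factor that recognises 3' splice sites, was mixed: its Col-0-higher summit at 0.764 had 3 tfiis-1-higher summits upstream and 1 downstream, at 0.984. The downstream summit also lay inside the gene AT5G42810, and those at 756 and 1840 bp inside AT5G42825 and AT5G06395. These summits cannot be assigned to 1 gene alone.

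Of genes for RNA polymerase subunits and elongation factors, 5 of 49 (10.2%, 3.40 to 22.2) were in the set. NRPA2 (AT1G29940), a large subunit of RNA polymerase I, was tfiis-1-higher at 401 and 1844 bp and Col-0-higher 84 bp from its end. This last summit also lay inside the gene AT1G29930, so it cannot be assigned to 1 gene alone. NRPC2 (AT5G45140), the counterpart of NRPA2 in RNA polymerase III, was Col-0-higher further from the end, at position 0.780. SPT42 (AT5G63670), a homologue of the elongation factor SPT4, was tfiis-1-higher at 230 bp and Col-0-higher 53 bp from its end. Chromatin genes numbered 10 of 113 (8.85%, 4.33 to 15.7) and ribosomal protein genes 6 of 67 (8.96%, 3.36 to 18.5). The 10 chromatin genes all had the common order. HDA15 (AT3G18520), a histone deacetylase, was tfiis-1-higher at 232, 829, 1736 and 3616 bp and Col-0-higher 5 bp from its end. SUVH9 (AT4G13460), a SET domain protein of RNA-directed DNA methylation, had 4 tfiis-1-higher summits from 129 to 2643 bp.

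**Figure D5:**
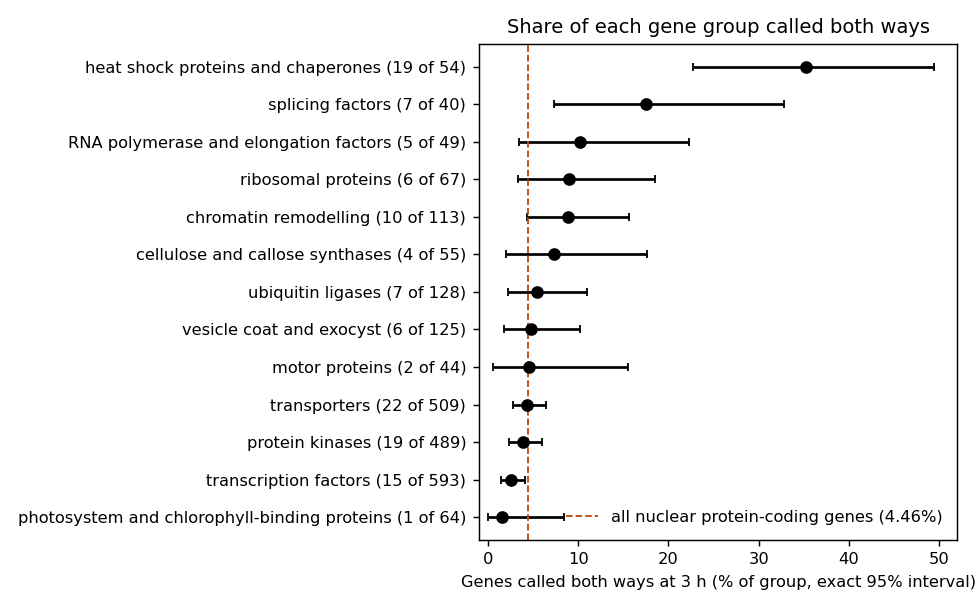
Share of each gene group that was called both ways at 3 h and absent from the tfiis-1-higher list of 0 min (x axis, percent, with exact 95% intervals for counting error), for groups of at least 20 genes. The dashed line is the share of all nuclear protein-coding genes, 4.46%; heat shock proteins and chaperones are at 35.2% and transcription factors at 2.53%.

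Other groups were near the share of all genes. They included transporters (22 of 509, 4.32%), vesicle coat and exocyst genes (6 of 125), protein kinases (19 of 489, 3.89%), ubiquitin ligases (7 of 128, 5.47%), motor proteins (2 of 44, 4.55%) and cellulose and callose synthases (4 of 55, 7.27%). Transcription factors were at 2.53% (15 of 593), and photosystem and chlorophyll-binding proteins at 1.56% (1 of 64, PPD6). The common order held in all 22 transporters and all 19 kinases of the set. MPK4 (AT4G01370), a MAP kinase of stress signalling, was tfiis-1-higher at 358, 998 and 1883 bp. Its Col-0-higher summit lay at 2221 bp, 10 bp from the gene AT4G01380. CPK21 (AT4G04720), a calcium-dependent kinase, had 4 tfiis-1-higher summits from 807 to 2901 bp and its Col-0-higher summit at 3486 bp. ABCC5 (AT1G04120), an ABC transporter, had 5 from 227 to 3505 bp, and Col-0-higher summits 6 bp apart at 30 min and 3 h, at 6545 and 6539 bp. Among groups of fewer than 20 genes, the set held 3 of 19 disease resistance genes, which were RPP4 (AT4G16860), RPP5 (AT4G16950) and RPS6 (AT5G46470), 1 of 14 RNA helicases, 1 of 5 nucleoporins (NUP155), and 0 of 11 aminoacyl-tRNA synthetases and 0 of 12 pentatricopeptide repeat proteins. RPP4 and RPP5 lie in a cluster of related genes, so reads may be shared between them. Only 37.8% of all genes and 49.6% of the set have a symbol, so unnamed genes could not enter a group. The groups also differed in gene length, with medians from 1531 to 6747.5 bp, and were not matched for it. Over the length quartiles of the set, 2.61%, 5.13%, 8.04% and 11.3% of all nuclear protein-coding genes were in the set. The part of length in the group shares was not tested.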

How the data were processed

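S2P RNAPII ChIP-seq of 32 samples (24 ChIP, 8 input) was deposited by the authors as 8 lists of 1 bp summits, each with the gene holding it. The submitters' processing notes name TAIR10 and the tools Bowtie2, FastQC, MACS3 and deepTools. The sources used here do not give the threshold, scaling, input use or pooling of replicates, so genes just inside or outside the call cannot be shown. A score of unstated scale stands beside each summit in 2 lists as deposited and only ranks summits there. Depth and its precision are unknown.

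Lines repeated for a gene were counted once. All 9114 gene identifiers matched the RefSeq table of TAIR10.1, whose intervals equalled the 922 in the lists. Coordinates are printed for genes with an interval in the lists, and positions count bp from the annotated start along transcription. With no value per library, no test was computed. Shares have exact (Clopper-Pearson) 95% intervals. The members, lists and rules were chosen with earlier results of these data known. Gene groups come from words in RefSeq symbols and synonyms, and wrong matches were removed after the members were seen. Named genes (97) are those with the most 3 h summits, up to 3 per group, and those with the nearest, farthest or reversed opposite summits. Others were tfiis-1-higher at 10 and 30 min and Col-0-higher at 30 min, or Col-0-higher early. The rest have the highest scores, the extremes of length or 3 or more Col-0-higher summits. Scripts were tested on simulated data. They ran in Python 3.11.15 with pandas 2.3.3, numpy 2.4.6 and scipy 1.17.1, and matplotlib 3.10.9 drew the figures.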

Additional observations from a re-analysis of the deposited data

How the results depend on the processing

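No paired analysis was possible because the lists hold no value per library, and for the same reason no replicate could be left out. Of 117 alternative values of 22 results, 94 stayed within the counting interval of the reported value (counts within 1.5 times), 23 moved and 0 reversed. No value moved when summits were merged over 300 bp, when genes shorter than 1000 bp were left out, or when summits inside overlapping genes were dropped. With the 0 min list not used, the share in the tfiis-1-higher lists was 44.9% at 10 min and 70.3% at 30 min, 27.9% of Col-0-higher 3 h summits lay near a 10 min tfiis-1-higher one, and 43.5% of tfiis-1-higher 3 h summits near one of 30 min. Near as within 150 bp gave 16.0% and 35.2% for these last shares, and within 600 bp 28.5% and 47.0%. With the highest-scoring 50% of the Col-0-higher 30 min list, 11.3% of the genes were in it, 10.3% of Col-0-higher 3 h summits lay near its summits, and its median position was 0.970. With 1 position per gene the tfiis-1-higher median at 30 min was 0.491. Opposite summits lay within 250 bp in 2.20% and within 1000 bp in 37.8% of the genes. The genes were longer than the background by 1016 bp, and than genes of any list by 509 bp. An alternative chosen after seeing the data kept 3 h summits with no other gene within 300 bp: 667 genes, 1276 tfiis-1-higher and 704 Col-0-higher summits, 98.8% with tfiis-1-higher upstream, 75.3% of Col-0-higher summits in the last 10%, median positions 0.968 (Col-0-higher, 3 h) and 0.720 (tfiis-1-higher, 10 min), and 20.5% of Col-0-higher summits near a 10 min one. The cause of these moves was not tested, beyond the fewer summits or wider windows that each alternative uses.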

Other observations

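The genes called both ways were spread over the chromosomes, with 4.23%, 4.42%, 4.14%, 4.45% and 5.04% of the nuclear protein-coding genes of chromosomes 1 to 5. Another annotated gene lay within 300 bp of 43.8% of their Col-0-higher summits and of 4.62% of their tfiis-1-higher summits of 3 h. In genes that were Col-0-higher alone the share was 50.8%. Of the Col-0-higher summits with no other gene within 300 bp, 716 in all, 74.7% lay in the last 10% of the gene, a median of 105.5 bp from its end.

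Some genes had more tfiis-1-higher sites at an earlier time than at 3 h. GLT1 (AT5G53460), the NADH-dependent glutamate synthase, had 4 at 10 min, 8 at 30 min reaching to position 0.947, and 1 at 3 h, at 0.130. Its Col-0-higher summit of 3 h lay 129 bp from its end and 3 bp from the gene AT5G53470. Of the 3 disease resistance genes, RPP4 had 5 tfiis-1-higher summits at 10 min and 1 at 3 h, 39 bp from its start. RPS6 (AT5G46470) had 4 at 10 min, 4 at 30 min and 1 at 3 h, while RPP5 (AT4G16950) had 3 at each time.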
